A study of Mus musculus with 6 samples.

Results

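Genes of neuronal RNA-binding and splicing factors, 10 in all, were followed in whole brains of C57BL/6 mouse embryos (E16.5): Elavl2, Elavl3, Elavl4, Nova1, Nova2, Rbfox1, Rbfox2, Rbfox3, Ptbp1 and Ptbp2. They were chosen by symbol, and all 10 had a row among the 53801 genes of the deposited count table and enough counts to be tested. Poly(A) RNA-seq had been done on 3 Bahd1-KO embryos, whose genotype is a constitutive Bahd1-/-, and on 3 Bahd1-WT embryos. No agent is named for either group. BAHD1 is a chromatin-associated protein that acts in the formation of repressive chromatin, and the study asked whether its loss changes gene expression in the embryonic brain. Each library is labelled as brain, and the study took whole brains, so that a gene's value sums all of its cell types, and fewer cells of a type and less RNA per cell cannot be told apart.

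The 10 genes belong to 4 families whose proteins bind RNA in the nucleus or cytoplasm of neural cells. The neuronal Elavl (Hu) proteins bind U-rich sequences and act on splicing and on the stability of messenger RNAs as neurons differentiate. The Nova and Rbfox proteins set the inclusion of alternative exons in neurons, and Rbfox3 is the antigen known as NeuN. Ptbp1 and Ptbp2 are polypyrimidine tract binding proteins that mostly repress exons. Ptbp1 is high in dividing progenitors, and as neurons form it gives way to Ptbp2. The genes lie on 9 chromosomes in the GENCODE annotation of GRCm38, and their spans differ widely. Rbfox1 is the longest, with 1526 kb (chr16:5885355-7411526, plus strand), and Ptbp1 the shortest, with 10.3 kb (chr10:79854427-79864771, plus strand). Elavl2 (chr4:91250763-91400785) and Elavl4 (chr4:110203722-110351909) are on the minus strand of the same chromosome, and Elavl3 is on another (chr9:22015005-22052023, minus strand). Nova1 is at chr12:46694517-46818929 (minus strand) and Nova2 at chr7:18925888-18965319 (plus strand). Rbfox2 (chr15:77078990-77307004), Rbfox3 (chr11:118489762-118911597) and Ptbp2 (chr3:119718742-119784466) are on the minus strand.

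The switch from Ptbp1 to Ptbp2 has a known molecular core, a short exon that each gene carries and whose skipping shifts the reading frame, so that the transcript is degraded. PTBP1 protein causes this skipping in Ptbp2 RNA, and the 2 exons are shown because the ratio of Ptbp2 to Ptbp1 is a main readout here. The exon is 34 bases long in both genes and stands in capitals, with 15 bases of the neighbouring exons on each side in lower case (GRCm38, GENCODE annotation).
Ptbp1, exon 9 of 13 of transcript Ptbp1-206, chr10:79862014-79862047, plus strand: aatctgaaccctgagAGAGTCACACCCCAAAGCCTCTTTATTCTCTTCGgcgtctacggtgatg
Ptbp2, exon 10 of 14 of transcript Ptbp2-213, chr3:119724612-119724645, minus strand: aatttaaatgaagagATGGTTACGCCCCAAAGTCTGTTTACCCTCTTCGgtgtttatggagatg
The exons share the base at 26 of 34 positions. In each gene, 2 transcripts annotated as subject to nonsense-mediated decay skip it. The count table is per gene, so inclusion of the exon was not measured.

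Promoters were read from RefSeq windows of 300 bases on GRCm38.p6, with 250 bases before and 50 after each start. There were 18 windows for 9 of the 10 genes, since Rbfox2 had no entry, and several windows of Elavl2 and of Elavl4 overlap each other. The windows of 3 genes are shown, with CpG dinucleotides in capitals. In the embryo described below, Elavl3 fell farthest below the other embryos, Rbfox3 stayed close to them and Ptbp1 rose above them.
Elavl3, chr9:22051974-22052273, minus strand: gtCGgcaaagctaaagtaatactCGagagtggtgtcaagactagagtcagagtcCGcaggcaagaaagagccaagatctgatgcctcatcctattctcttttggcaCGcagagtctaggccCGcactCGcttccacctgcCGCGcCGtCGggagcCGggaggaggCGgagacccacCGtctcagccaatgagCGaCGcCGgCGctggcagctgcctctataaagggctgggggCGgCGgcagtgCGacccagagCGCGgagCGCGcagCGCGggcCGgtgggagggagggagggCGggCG
Rbfox3, chr11:118760992-118761291, minus strand: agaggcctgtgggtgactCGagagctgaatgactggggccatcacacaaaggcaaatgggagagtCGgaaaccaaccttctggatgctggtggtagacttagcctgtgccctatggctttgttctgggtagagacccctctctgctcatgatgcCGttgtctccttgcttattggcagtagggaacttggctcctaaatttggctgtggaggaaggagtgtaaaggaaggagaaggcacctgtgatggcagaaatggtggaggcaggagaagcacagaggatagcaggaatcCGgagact
Ptbp1, chr10:79854182-79854481, plus strand: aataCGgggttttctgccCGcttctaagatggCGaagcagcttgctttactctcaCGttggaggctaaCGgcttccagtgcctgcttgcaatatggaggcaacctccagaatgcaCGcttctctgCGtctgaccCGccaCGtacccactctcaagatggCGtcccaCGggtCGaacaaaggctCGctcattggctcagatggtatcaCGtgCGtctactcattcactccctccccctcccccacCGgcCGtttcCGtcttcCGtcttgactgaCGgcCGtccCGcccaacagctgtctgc
These windows hold 29 CpG in Elavl3, 4 in Rbfox3 and 22 in Ptbp1, against a median of 7 in all 32851 mouse windows. The windows of Elavl3 and Ptbp1 lie at the annotated start of the gene. That of Rbfox3, its only window, lies inside the gene, whose annotated start is at 118911597, so that start was not examined. Over the 18 windows the number ran from 3, in one of Rbfox1, to 36 in Ptbp2. REST is a repressor that keeps neuronal genes silent outside neurons, and the parts CAGCACC and GGACAG of its binding element were searched on both strands. CAGCACC was in 0 of the 18 windows and in 7.14% of all windows, and GGACAG in 2 of 18, 1 of Elavl2 and that of Ptbp2, against 22.2% of all. TATAAA, searched in the same way, was in 1 of the 18, that of Elavl3, against 13.6% of all.

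Libraries held 61724000 to 91782802 counts. For the targeted gene, Bahd1, 1971, 3102 and 3470 counts were found in controls and 2, 10 and 6 in knockouts (log2 fold change -8.40, edgeR adjusted p = 0.0462). One library stood apart. In the third knockout, Bahd1-KO replicate 3, Gm42418, which overlaps ribosomal RNA sequence, and the mitochondrial genes took 48.7% of counts, against 3.10% to 6.27% in the other 5. Its markers also go against the label of embryonic brain in part. Sftpc, a surfactant protein of the lung, stood at 828 CPM (library-scaled counts) there. It stood at 2.66 in Bahd1-KO replicate 2 and at 0 to 0.109 in the remaining embryos. Scgb1a1, another of the lung genes below, stood at 6.52 in Bahd1-KO replicate 3 and 6.05 in Bahd1-KO replicate 2. In the remaining embryos it was at 0.0611 to 0.159. Whether Bahd1-KO replicate 3 holds RNA of other tissues or is mislabelled was not tested. The source of the lung transcripts in Bahd1-KO replicate 2 was not tested either. The differences between genotypes are therefore given with and without Bahd1-KO replicate 3, and Bahd1-KO replicate 2 is kept in both.

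Between the genotypes, none of the 10 genes passed the test. Of 24739 genes tested by edgeR's quasi-likelihood test with Benjamini-Hochberg adjustment at 0.05, 1 gene was called, Bahd1 (0.00404%), and 0 of the 10 genes, none of which reached an unadjusted p of 0.05 either (4.67% of all genes did). Without Bahd1-KO replicate 3, 4 of 23334 genes were called (0.0171%), again 0 of the 10, with 0 at an unadjusted p of 0.05 (1.48% of all genes). DESeq2 also called 0 of the 10, both with all embryos, where 0.0334% of genes were called, and without that embryo, where 0.0471% were. The ranges of the genotypes overlapped for all 10 genes, with all embryos (4.24% of 14825 genes with a mean of at least 1 CPM did not overlap) and without that embryo (6.68%).

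**Figure D1:**
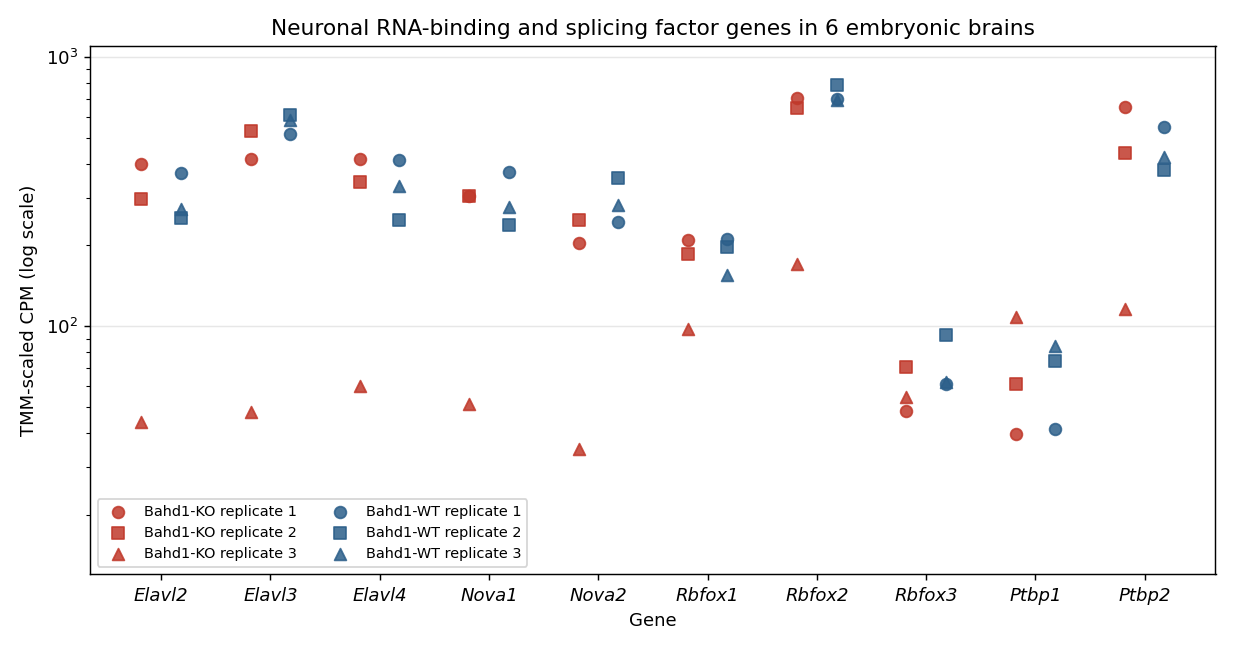
Each point is 1 gene in 1 embryo, in CPM (read counts scaled to a common library size with TMM factors) on a log axis, Bahd1-KO in red and Bahd1-WT in blue, with marker shapes for replicate numbers. Bahd1-KO replicate 3 lies below all other embryos for 8 of the 10 genes and above them for Ptbp1.

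Levels are given as CPM scaled by TMM factors, in the order of Bahd1-KO replicates 1, 2 and 3 and then of Bahd1-WT replicates 1, 2 and 3. Elavl2, one of the earliest neuronal Elavl genes to come on, stood at 401, 298 and 44.1 and at 372, 253 and 272 CPM. Elavl3, a marker of newly born neurons, stood at 420, 532 and 48.1 and at 518, 607 and 584 CPM. Elavl4, which acts on neurite growth, stood at 419, 344 and 59.9 and at 414, 249 and 332 CPM. In all 3 genes the third Bahd1-KO embryo was far below the other embryos, while the other 2 Bahd1-KO embryos stayed between 298 and 532 CPM. The log2 fold change was -0.27 for Elavl2 (SE 0.685, adjusted p = 0.895 by edgeR), -0.77 for Elavl3 (SE 0.729, adjusted p = 0.726) and -0.27 for Elavl4 (SE 0.636, adjusted p = 0.888). Without that embryo the values became 0.21, -0.27 and 0.19 (adjusted p = 0.981 for each by edgeR), so that Elavl2 and Elavl4 turned their sign.

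The Nova genes encode regulators of exons in synaptic proteins, with Nova2 the main form in the cortex. Nova1 stood at 305, 304 and 51.5 CPM in the Bahd1-KO and at 376, 238 and 278 CPM in the Bahd1-WT embryos. For Nova2 the values were 204, 248 and 35.1 against 243, 357 and 281 CPM. Nova2 had the most negative log2 fold change of the 10 genes, -0.85 (SE 0.634, 95% interval -2.34 to 0.64, adjusted p = 0.696 by edgeR), and Nova1 had -0.43 (SE 0.613, adjusted p = 0.813). Without Bahd1-KO replicate 3 these were -0.39 (95% interval -0.92 to 0.15, adjusted p = 0.981) and 0.02 (adjusted p = 0.995).

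Of the Rbfox genes, Rbfox2 is expressed in progenitors and neurons alike, Rbfox1 in neurons and muscle, and Rbfox3 in neurons that have left the cell cycle. Rbfox1 stood at 208, 186 and 97.7 CPM in the Bahd1-KO and at 212, 198 and 154 CPM in the Bahd1-WT embryos. Rbfox2 stood at 703, 649 and 170 against 698, 789 and 695 CPM. Rbfox3 stood at 48.5, 70.8 and 54.8 against 61.2, 92.5 and 62.4 CPM, and here Bahd1-KO replicate 3 lay between the other Bahd1-KO embryos. Their log2 fold changes were -0.20 (SE 0.333), -0.52 (SE 0.502) and -0.31 (SE 0.277), with adjusted p = 0.846, 0.731 and 0.714 by edgeR. Without that embryo they were 0.06, -0.12 and -0.28 (adjusted p = 0.982, 0.981 and 0.981 by edgeR).

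Ptbp1 stood at 40.0, 61.1 and 108.5 CPM in the Bahd1-KO embryos and at 41.5, 74.6 and 84.4 CPM in the Bahd1-WT embryos, so that the third Bahd1-KO embryo was the highest of all. Its paralog Ptbp2 stood at 651, 439 and 116 against 552, 379 and 425 CPM, with that embryo the lowest. The log2 fold change was 0.06 for Ptbp1 (SE 0.434, adjusted p = 0.965 by edgeR) and -0.17 for Ptbp2 (SE 0.564, adjusted p = 0.922). Both turned their sign without Bahd1-KO replicate 3, to -0.41 and 0.25 (adjusted p = 0.981 for each by edgeR).

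Over the 10 genes, 9 log2 fold changes were negative and 1 positive, with a median of -0.29 against 0.06 for all genes tested. Among the 14825 genes of at least 1 CPM, which include all 10, 8117 were negative and the median was -0.06. A GC correction, chosen after seeing the data, moved the median of the 10 with all embryos to -0.54, with -0.56 for Elavl2 and -0.58 for Ptbp2. With this correction and without Bahd1-KO replicate 3 the median was -0.056. Uncorrected and without that embryo, 5 were negative and 5 positive. Their median was then -0.05, against -0.01 for all genes tested and -0.03 for genes of at least 1 CPM. The 95% intervals with all embryos were wide, from -2.49 to 0.94 for Elavl3 at the widest. Without that embryo the lowest bound was -1.21, for Ptbp1, and the highest 0.82, for Ptbp2, so that larger differences than these lay outside the intervals.

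**Figure D2:**
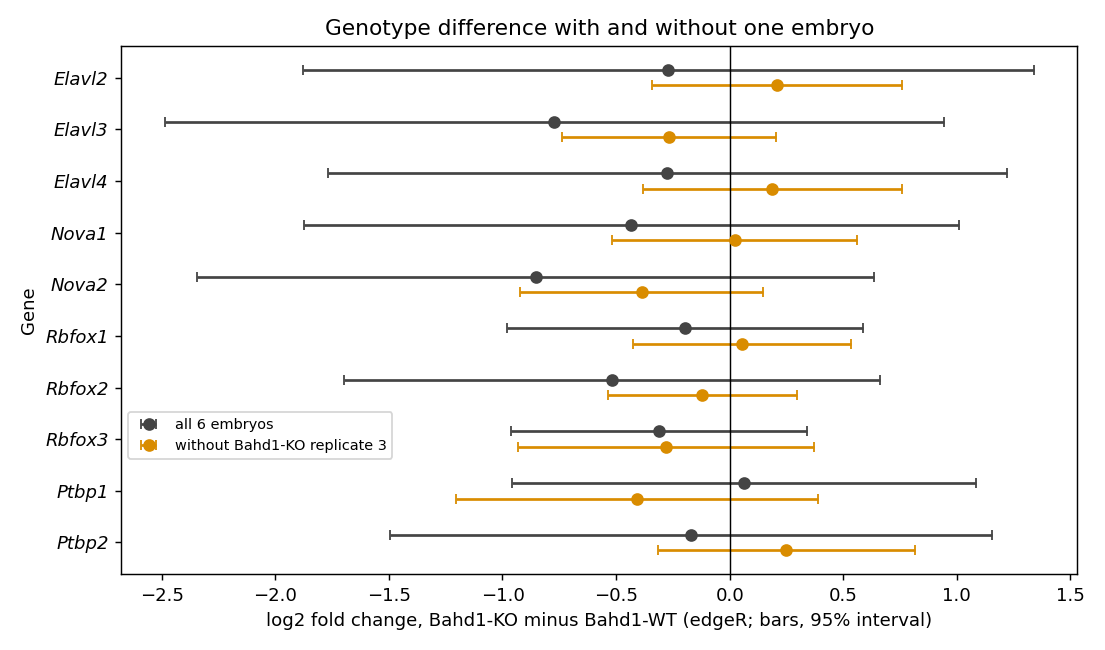
Points are log2 fold changes of Bahd1-KO against Bahd1-WT embryos by edgeR and bars are 95% intervals, with all 6 embryos (grey) and without Bahd1-KO replicate 3 (orange). All 20 intervals include 0, and all 10 are shorter without that embryo.

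To compare genes with each other, counts were also divided by the summed length of each gene's annotated exons (RPKM, with TMM-scaled library sizes). In the Bahd1-WT embryos Rbfox2 had the highest level, 89.4 ± 6.58 RPKM (SD, n = 3), and Elavl3 followed with 82.7 ± 6.76. Elavl4 had 61.6, Ptbp2 49.3, Rbfox1 42.7, Elavl2 36.0, Nova2 35.1 and Nova1 33.96 RPKM. Ptbp1 with 14.1 ± 4.75 and Rbfox3 with 12.4 ± 3.05 RPKM were the lowest. The ranges of neighbours in this order overlapped at every step but that from Nova1 to Ptbp1. Rbfox2 was the highest of the 10 in 5 of the 6 embryos. In Bahd1-KO replicate 3 the order was another: Ptbp1 came 1st, Rbfox1 2nd and Rbfox2 3rd, and Nova2 came last. Ptbp1 made up 18.8% of the 10 genes' summed RPKM there, against 1.80% to 4.05% in the other embryos.

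Ratios within an embryo do not depend on the scaling between libraries, and 6 of them were tested between the genotypes. The ratio of Ptbp2 to Ptbp1 per exonic base was 6.88, 2.63 and 2.60 in controls and 8.41 and 3.71 in the first pair of knockouts. It was 0.554 in Bahd1-KO replicate 3, the 1 embryo with more Ptbp1 than Ptbp2 on this scale. In CPM, not divided by length, Ptbp2 was still above Ptbp1 there (116 against 108.5). The lengths were of all annotated exons, 9175 bases for Ptbp2 and 4740 for Ptbp1, and which exons were in use was not measured. The genotypes differed by -0.48 in mean log2 ratio (exact two-sided permutation test, p = 0.9, adjusted p = 0.9 over the 6 ratios), and by 0.63 without that embryo (exact permutation p = 0.5). With 20 relabelings of the embryos the smallest p this test can give is 0.1.

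The ratio of Nova2 to Nova1 was 0.700, 0.854 and 0.713 in the Bahd1-KO and 0.677, 1.57 and 1.06 in the Bahd1-WT embryos. That of Elavl3 to Elavl2 was 1.26, 2.16 and 1.32 against 1.68, 2.90 and 2.59. Their mean log2 ratios differed by -0.47 and -0.61, Bahd1-KO minus Bahd1-WT, with overlapping ranges (exact permutation p = 0.4 and 0.2, adjusted p = 0.75 for each), and by -0.43 and -0.50 without Bahd1-KO replicate 3. Both ratios set a gene of higher GC content over one of lower GC content, and the embryos differ by GC content as described below. Elavl4 to Elavl2 varied least, from 1.52 to 2.09 over all 6 embryos. In Bahd1-KO replicate 3, in which all 3 Elavl genes were low, Elavl3 to Elavl2 lay inside the range of the other embryos and Elavl4 to Elavl2 just above it. Rbfox3 to Rbfox1 was 0.424 in that embryo against 0.176 to 0.354 in the others, and Rbfox1 to Rbfox2 was 1.06 against 0.411 to 0.562. For Elavl4 to Elavl2, Rbfox3 to Rbfox1 and Rbfox1 to Rbfox2 the genotypes differed by 0.10, -0.05 and 0.51 in mean log2 ratio (exact permutation test, adjusted p = 0.75, 0.9 and 0.75). Without that embryo these were -0.0053, -0.35 and 0.18.

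**Figure D3:**
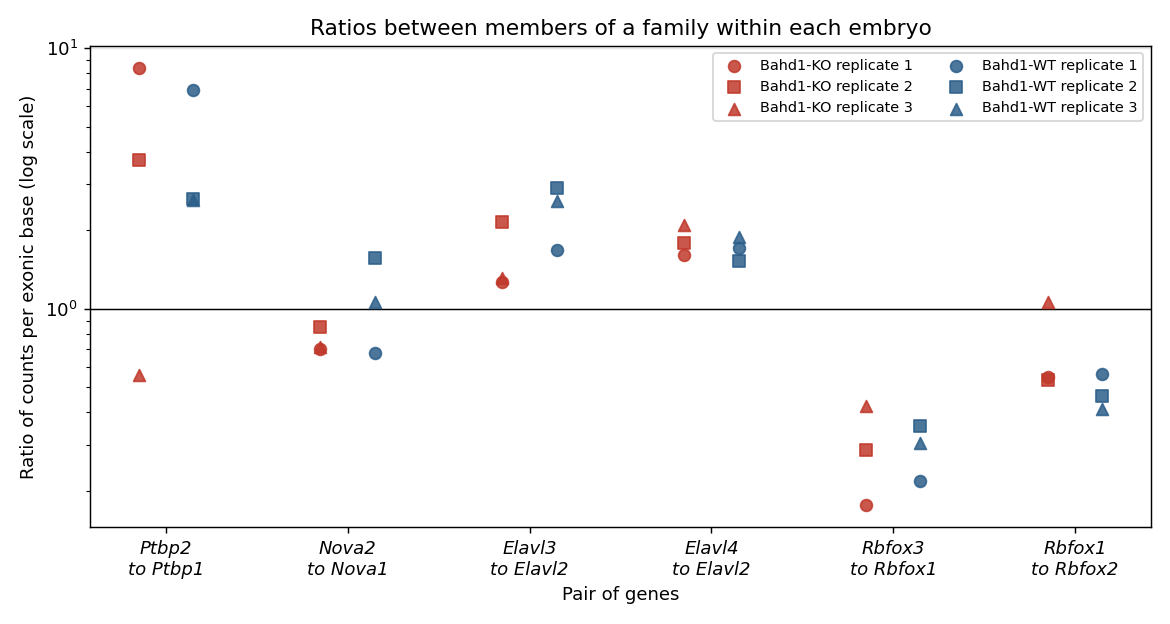
Each point is the ratio of 2 genes in counts per exonic base within 1 embryo, on a log axis, Bahd1-KO in red and Bahd1-WT in blue. The ratio of Ptbp2 to Ptbp1 is 0.554 in Bahd1-KO replicate 3 and at least 2.60 in the other 5 embryos.

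The departure of Bahd1-KO replicate 3 from the mean of the other 5 embryos is a description of 1 library. Elavl3 was 11.0-fold lower there, Nova2 7.47-fold, Elavl2 7.12-fold, Elavl4 5.77-fold and Nova1 5.76-fold. Rbfox2 was 4.14-fold and Ptbp2 4.12-fold lower, Rbfox1 1.95-fold and Rbfox3 1.20-fold, and Ptbp1 was higher by 0.91 on the log2 scale. Among the other 5 embryos the SD of the 10 genes was 0.10 to 0.49 on that scale, so that Rbfox3 alone stayed within its spread. The embryo was the lowest of 6 for 8 of the 10 genes (45.5% of genes of at least 1 CPM) and lay 1 or more log2 units below the mean of the others for 7 of 10 (24.1%). The median departure was -2.29 for the 10 genes and -0.24 for all genes of at least 1 CPM. Only 1.47% of those genes were lower still than Elavl3. Summed per family, the Elavl genes were 7.73-fold, the Nova genes 6.57-fold, the Rbfox genes 2.70-fold and the Ptbp genes 1.86-fold lower per exonic base. The 10 genes took 0.0537% of this library's counts, against 0.346% to 0.364% in the others. These shares are of all counts, of which Gm42418 and the mitochondrial genes took 48.7% in this library. On the TMM scale the 10 genes summed to 786 CPM in it, against 3132 to 3487 CPM.

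Marker lists moved in the same library, and their part in these values was not tested. The summed level of 10 neuron markers was 2550 CPM there, against 8738 to 10841 CPM in the other 5 embryos, with 7 of the 10 lowest and 1 highest in it. Dcx and Tubb3, both high in young neurons, departed by -6.31 and -5.14 on the log2 scale, but Syt1 by 0.05, Gad2 by -0.14 and Snap25 by 2.15. Snap25, a synaptic protein, is also in the list of mature neurons. The 10 markers of mature neurons and their myelin instead summed to 2343 CPM against 690 to 967, with 7 highest in it and 0 lowest, among them Camk2a (2.44 higher) and Mbp (3.37 higher). Of 10 genes of dividing progenitors, 6 were lowest and 4 highest in it, and the 9 glial genes summed to 896 against 885 to 1177 CPM, with 3 lowest (Fabp7 at -5.12) and 4 highest (Gfap at 4.07, Aqp4 at 2.76). The 6 lung genes summed to 1264 against 13.7 to 26.8 CPM, the 10 of skeletal muscle to 148 against 4.62 to 14.95, and the 8 of connective tissue and meninges to 2621 against 363 to 484. Most of the lung sum in the other embryos was Nkx2-1, at 13.3 to 23.5 CPM. The 8 blood genes summed to 429 against 133 to 594 CPM, with 4 highest in it and a median departure of 1.37, and microglial genes to 75.7 against 40.5 to 61.1 CPM.

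**Figure D4:**
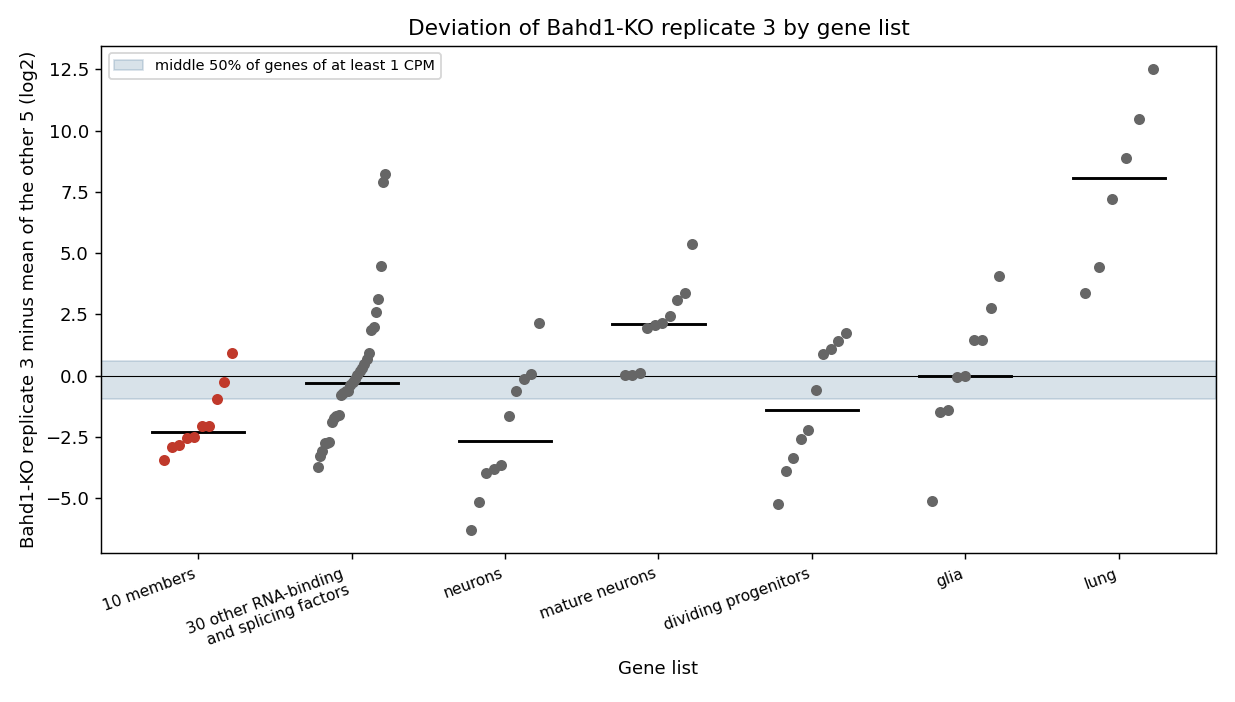
Each point is 1 gene's log2 level in Bahd1-KO replicate 3 minus its mean in the other 5 embryos, bars are list medians, and the band holds the middle 50% of genes of at least 1 CPM. The 10 genes have a median of -2.29, and the lung genes lie above all of them.

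The other neural RNA-binding and splicing factors, a list of 30 genes, gave a broader spread. None was called with all embryos or without Bahd1-KO replicate 3 by edgeR, 4 reached an unadjusted p of 0.05 with all embryos (4.67% of all genes) and 1 without it (1.48%), and 15 log2 fold changes were positive and 15 negative. The lowest were Celf3 with -1.12, Msi1, an RNA-binding protein of neural stem cells, with -0.83 and Celf5 with -0.74. The highest were the epithelial splicing regulators Esrp2 with 7.25 and Esrp1 with 6.71, and Mbnl3 with 3.11. Without that embryo these became -0.60, -0.34, -0.28, 0.53, 0.53 and 0.21. In it, Esrp1 stood at 44.2 CPM against 0.125 to 0.225 in the others. The muscleblind genes Mbnl1, Mbnl2 and Mbnl3, whose proteins promote exon use of mature tissues, were higher in it by 2.62, 3.15 and 4.47 on the log2 scale, and Ptbp3, the third Ptbp paralog, by 1.996. Srrm4, which promotes neuronal microexons, departed by -3.26. Of the 29 genes at 1 CPM or more, this embryo was the lowest for 15 (45.5% of all such genes) and the highest for 9 (4647 of all 14825), with a median departure of -0.37 against -0.24.

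Transcripts known to be acted on by these factors were looked at as well. Dlg4 and Gabbr1, whose neuronal exons the Ptbp proteins repress, had log2 fold changes of -0.87 and -0.41 (adjusted p = 0.696 for each by edgeR), and -0.56 and -0.18 without Bahd1-KO replicate 3. Gap43, a growth cone protein whose messenger RNA is bound by neuronal Elavl proteins, stood at 527, 736 and 55.3 CPM in the Bahd1-KO and at 770, 762 and 762 CPM in the Bahd1-WT embryos. Its groups did not overlap with all embryos (4.24% of genes of at least 1 CPM) or without Bahd1-KO replicate 3 (6.68%). It was not called (log2 fold change -0.80, SE 0.765, adjusted p = 0.729 by edgeR, and -0.28 without that embryo). Tubb3, another transcript bound by neuronal Elavl proteins, had -1.29 (-0.72 without that embryo) and was not called. Gap43 and Tubb3 are also in the list of neuron markers, and departed by -3.67 and -5.14 on the log2 scale in Bahd1-KO replicate 3. The host genes of miR-124, a neuronal microRNA that represses Ptbp1, both stood at -0.21 in log2 fold change (adjusted p = 0.894 for Mir124a-1hg and 0.925 for Mir124-2hg by edgeR). Without Bahd1-KO replicate 3 both turned their sign, to 0.20 and 0.28 (adjusted p = 0.981 for each by edgeR). In that embryo Mir124a-1hg stood at 32.9 CPM against 118 to 165 in the others and Mir124-2hg at 18.1 against 111 to 196.

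A second pattern set the replicate 1 embryos of both genotypes apart from Bahd1-KO replicate 2 and Bahd1-WT replicates 2 and 3. Ptbp2, Elavl2, Elavl4, Nova1 and Rbfox1 were higher in the replicate 1 embryos, by 0.53, 0.50, 0.45, 0.32 and 0.23 on the log2 scale. Rbfox2, Elavl3, Nova2, Rbfox3 and Ptbp1 had values below 0 in the same difference, -0.02, -0.30, -0.39, -0.45 and -0.84. The first 5 genes have a GC content of 34.2% to 45.0% in their longest transcript and the other 5 of 51.5% to 58.6%. Over all genes of at least 1 CPM in 4 equal bins of GC content, the same difference had medians of 0.44, 0.16, -0.20 and -0.77 from the lowest bin to the highest. The high ratio of Ptbp2 to Ptbp1 in these embryos, 8.41 and 6.88, goes with this pattern. The ratios of Nova2 to Nova1, Elavl3 to Elavl2, Rbfox3 to Rbfox1 and Rbfox1 to Rbfox2 also pair genes from either side of this GC divide. Only Elavl4 to Elavl2, at 38.9% and 38.5%, does not. With the GC correction, 0 of the 10 genes were called. The corrected log2 fold changes with all embryos were -0.565 for both Elavl2 and Elavl3, -0.699 for Nova1 and -0.525 for Nova2. Without Bahd1-KO replicate 3 they were -0.044 for Elavl2, -0.057 for Elavl3, -0.20 for Nova1 and -0.055 for Nova2. The ratios themselves were not recomputed with it.

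**Figure D5:**
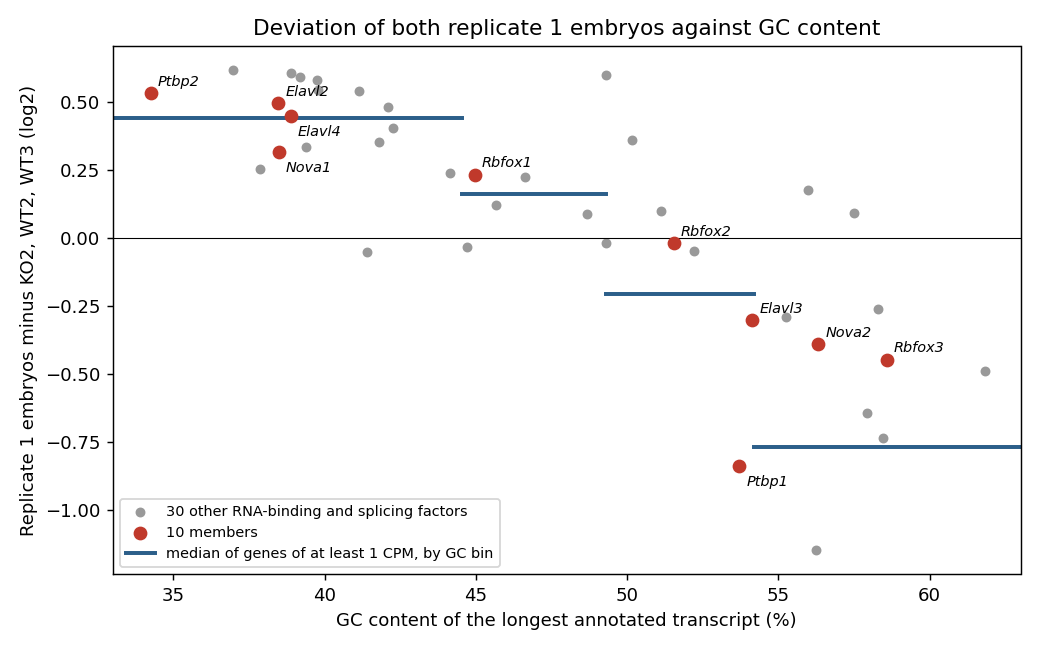
Points are genes, with GC content of the longest annotated transcript in percent and the mean log2 level of both replicate 1 embryos minus that of Bahd1-KO replicate 2 and Bahd1-WT replicates 2 and 3, the 10 genes in red and the 30 others in grey. Blue lines are the medians of all genes of at least 1 CPM in each GC bin, falling from 0.44 to -0.77, and of the 10 genes Ptbp2 is the highest and Ptbp1, in the third bin, the lowest.

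The genes with the most similar profile over the 6 embryos were found by the Euclidean distance between log2 levels centred on each gene's mean, over 14824 candidates. The nearest to Elavl2 was Prkar2b at a distance of 0.15, to Elavl3 Pdzrn4, to Elavl4 Nudt11, to Nova1 Npas3 and to Nova2 Celf5. For Rbfox1 it was Rsad1, for Rbfox2 Tcte2, for Rbfox3 Cacna1a, for Ptbp1 Inppl1 and for Ptbp2 B3gnt5. Within the list, Elavl4 and Nova1 were nearest to each other, at 0.30, with 5 other genes nearer to Elavl4 than Nova1. Elavl3 and Nova2 were also each other's nearest, at 0.58. Rbfox1 and Rbfox3 were 1.03 apart, with 5309 genes nearer to Rbfox1 and 5031 nearer to Rbfox3, and Ptbp1 was farthest from the rest, 1.30 from Rbfox3. These distances rest on all 6 libraries and were not computed without Bahd1-KO replicate 3.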

How the data were processed

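The authors made poly(A) RNA-seq libraries from whole brains at E16.5 and deposited 1 table of raw read counts per gene; the submitters' processing notes name cutadapt 1.11, STAR 2.5.0a, featureCounts 1.4.6-p3, DESeq2 1.20.0 and GRCm38. The counts, 61724000 to 91782802 per library, were used as deposited. Genes with a sum of 10 or more counts entered the test in edgeR 4.0.16 (TMM factors, quasi-likelihood test, genotype as the only term, two-sided, Benjamini-Hochberg adjustment over all genes, R 4.3.3). A TMM factor of 0.6835 was estimated for Bahd1-KO replicate 3 and of 1.04 to 1.11 for the others. The standard error was taken from the fold change and the F statistic. Levels are TMM-scaled CPM, with a prior count of 2 on the log scale, and RPKM used exon lengths of GENCODE. DESeq2 1.42.0, limma 3.58.1 (voom with quality weights), other filters and scalings, leaving out each embryo, a replicate block and a GC correction were alternatives. On simulated data with a dispersion of 0.02 and no outlying embryo, edgeR called 98% of genes changed 2-fold. That checks the code and does not measure power in these data. In the fit with all embryos the SE of the 10 genes ran from 0.277 for Rbfox3 to 0.729 for Elavl3. The genes described and all lists were chosen with earlier results of these data known. Named genes were the 10 genes, Bahd1, called genes of the list of 30 and its 3 highest and 3 lowest, known targets, nearest profiles, and markers that moved with a result; Mbnl1, Mbnl2, Ptbp3 and Srrm4 were chosen after their values were seen. P-values of the count models set the genotype difference against the spread between embryos within groups, and those of the ratios against relabelings of the embryos. The position of reads within genes was not analysed here. One gene of the lists is not reported here.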

Additional observations from a re-analysis of the deposited data

How the results depend on the processing

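None of the 10 genes and none of the 30 others was called under any alternative, but DESeq2 with all embryos gave no adjusted p for 3 of the 30. An unadjusted p of 0.05 was reached by 1 of the 10 with voom and quality weights (2213 of 24739 genes). With the edgeR replicate block without Bahd1-KO replicate 3, 2 of the 10 reached it (2171 of 23334). Genes called over the whole table were 1 in the reported fit, 8 by DESeq2, 6 by voom with quality weights, 0 with ribosomal and mitochondrial genes left out (1095 at an unadjusted p of 0.05), and 0 to 4 when 1 embryo was left out. Without Bahd1-KO replicate 3 DESeq2 called 11. A GC correction, chosen after seeing the data, called 6 without that embryo. The same-numbered pairs correlated by 0.22, 0.32 and -0.12, the last being the pair with Bahd1-KO replicate 3. Against controls of another number, Bahd1-KO replicate 1 had -0.13 and -0.17, and Bahd1-KO replicate 2 had -0.50 and 0.36. Bahd1-KO replicate 3 had 0.17 and -0.12. So few values cannot tell whether replicate numbers pair the embryos. The replicate block called 0 genes (517 at an unadjusted p of 0.05), 16 without Bahd1-KO replicate 3, and 0 with the GC correction (378 unadjusted). In every fit with 0 genes called, the deleted Bahd1 was missed as well. Such fits cannot tell whether the 10 genes differ.

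The log2 fold change turned its sign with voom for Elavl2 (0.24), Elavl4 (0.29), Nova1 (0.077), Rbfox1 (0.043), Ptbp1 (-0.53) and Ptbp2 (0.32). DESeq2 without Bahd1-KO replicate 3 gave 0.21, 0.18, 0.018, 0.055, -0.41 and 0.25 for the same genes. The replicate block without that embryo gave 0.16 for Elavl2, 0.23 for Elavl4, 0.0096 for Nova1, -0.19 for Ptbp1 and 0.21 for Ptbp2. Total-count scaling gave -0.24 for Ptbp1. The GC correction gave 0.17 for Rbfox3, 0.18 with the replicate block and 0.097 without Bahd1-KO replicate 3, where Rbfox2 had 0.0020 and Ptbp1 -0.20. With all embryos, the median of the 10 was -0.54 with the GC correction, -0.65 with the replicate block and -0.93 with both, against -0.29. Without Bahd1-KO replicate 3 it was -0.056 with the GC correction and -0.11 with the replicate block. The cause was not tested.

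Leaving out 1 embryo at a time, the log2 fold change ran from -0.80 to 0.21 for Elavl2, -1.32 to -0.27 for Elavl3, -0.72 to 0.19 for Elavl4, -0.76 to 0.022 for Nova1, -1.33 to -0.39 for Nova2, -0.40 to 0.055 for Rbfox1, -0.83 to -0.12 for Rbfox2, -0.51 to -0.10 for Rbfox3, -0.41 to 0.35 for Ptbp1 and -0.70 to 0.25 for Ptbp2. The log2 difference in ratio ran from -1.33 to 0.63 for Ptbp2 to Ptbp1, -0.0053 to 0.18 for Elavl4 to Elavl2, -0.35 to 0.28 for Rbfox3 to Rbfox1 and 0.18 to 0.68 for Rbfox1 to Rbfox2. With all embryos the intervals of these genes reached -2.49 at the lowest.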
